A study of Mus musculus with 2 samples.

Results

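The Ly6 family surface antigens described here are 6 neighbouring mouse genes, Ly6a, Ly6c1, Ly6c2, Ly6e, Ly6i and Ly6g, out of 32589 genes counted in each of 2 single-cell RNA libraries. All 6 were found by symbol in both count tables, each on 1 row, as ENSMUSG00000075602, ENSMUSG00000079018, ENSMUSG00000022584, ENSMUSG00000022587, ENSMUSG00000022586 and ENSMUSG00000022582 in that order. They were chosen by what they showed in these same libraries, so that every level and every difference below is a description and none is a test. The cells were live CD45-positive leukocytes sorted from tumours that the mouse colon carcinoma line MC38 had formed 19 days after inoculation. One library came from the control group (Ctrl) and the other from the group given BiDT, a name that the labels do not spell out. The groups follow the treatment label and the title, because the treatment protocol text of the Ctrl sample also names BiDT treatment. The series title speaks of a fusion of an anti-TIM3 antibody and an interferon. Each library pooled cells of 5 biological replicates, so that there is 1 library per group, no replicate spread and no p-value. The labels give no strain, age, dose or schedule for either group.

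Ly6 proteins are small, disulphide-rich domains tied to the outer face of the cell membrane by a glycosylphosphatidylinositol (GPI) anchor. Immunologists know them mainly as antibody targets that sort leukocytes: Ly6C separates classical from non-classical monocytes, Ly6G defines neutrophils, and Sca-1, the product of Ly6a, marks blood stem cells and activated lymphocytes. Type I interferon is known to induce several of them, Sca-1 and Ly6C among them, in T cells and monocytes. The question put to the data was how far each of the 6 transcripts still pointed to a lineage in the treated tumours.

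The genes lie in 1 cluster on mouse chromosome 15, in the order Ly6e, Ly6i, Ly6a, Ly6c1, Ly6c2 and Ly6g in the RefSeq annotation, with Ly6a2 between the last 2. RefSeq promoter windows of build GRCm38.p6, from 250 bases before to 50 after a transcription start, were at hand for Ly6c1, Ly6c2 and Ly6g, the 3 genes whose products Ly6C and Ly6G serve as myeloid markers. They are shown because these near copies had very different ranges of expression. The Ly6c1 window is chr15:75048788-75049087 on the minus strand, that of Ly6c2 chr15:75111922-75112221 on the minus strand and that of Ly6g chr15:75155079-75155378 on the plus strand, and capitals mark every match to GAGGAAGT, a core bound by the myeloid and B cell factor PU.1, on either strand.
Ly6c1 promoter: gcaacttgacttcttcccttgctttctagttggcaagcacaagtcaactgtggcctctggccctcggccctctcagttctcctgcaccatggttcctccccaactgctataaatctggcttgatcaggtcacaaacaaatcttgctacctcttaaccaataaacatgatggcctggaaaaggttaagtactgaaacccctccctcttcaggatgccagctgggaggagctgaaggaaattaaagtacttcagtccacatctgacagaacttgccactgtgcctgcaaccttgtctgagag
Ly6c2 promoter: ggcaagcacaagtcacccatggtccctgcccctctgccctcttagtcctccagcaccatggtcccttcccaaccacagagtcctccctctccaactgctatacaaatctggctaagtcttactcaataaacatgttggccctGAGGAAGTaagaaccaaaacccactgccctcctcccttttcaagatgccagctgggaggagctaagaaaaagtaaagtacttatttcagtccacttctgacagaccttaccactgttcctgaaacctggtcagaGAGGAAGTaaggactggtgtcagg
Ly6g promoter: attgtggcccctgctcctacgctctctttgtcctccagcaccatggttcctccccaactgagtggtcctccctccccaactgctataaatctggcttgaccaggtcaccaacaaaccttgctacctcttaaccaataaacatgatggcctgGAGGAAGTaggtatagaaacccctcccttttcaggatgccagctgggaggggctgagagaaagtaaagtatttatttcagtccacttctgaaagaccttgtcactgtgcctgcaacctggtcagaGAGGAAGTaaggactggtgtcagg

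Aligned end to end, the Ly6c2 and Ly6g windows were 79.0% identical, Ly6c1 and Ly6g 78.3% and Ly6c1 and Ly6c2 71.3%. These values are over all 300 bases of the printed windows, which are not in register, so that unmatched ends count as differences. Windows of the other annotated starts were not compared. The Ly6c2 window held GAGGAAGT at -108 and at 27 bases after the start, and the Ly6g window at -99 and 27. The Ly6c1 window held no complete match. A second annotated Ly6c1 start, with the window chr15:75048614-75048913, held 1 match at -127, and the other annotated Ly6g start, with the window chr15:75155011-75155310, held 1 at -31. The printed Ly6c1 window breaks off inside that Ly6c1 match, after its letters GAG. Its lack of a match there thus comes from where the window ends. The letters after this match, aaggactggtgt, also follow the matches at 27 in Ly6c2 and Ly6g. Of 32851 RefSeq mouse promoter windows of this length, 3.20% held the sequence. A pair of GAAA with any 2 bases between them, a core of the interferon-stimulated response element found in 3.44% of windows, matched none of the windows of these 3 genes on either strand. A match is a description of letters and says nothing of binding.

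The transcripts of Ly6c1 and Ly6c2 are close enough to affect their counts. Over the last 300 bases, which a 3′ assay reads, the longest protein-coding GENCODE M21 transcripts of the pair were 95.7% identical, and 75 of 251 words of 50 bases in Ly6c1 also occurred in Ly6c2. No other pair of the 6 shared a word of that length. The sources used here do not say how reads that fit both genes were counted. A low Ly6c1 value in a cell class rich in Ly6c2 is therefore uncertain, and so is a low Ly6c2 value in a class rich in Ly6c1.

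The Ctrl table held 34310 barcodes and 211047063 unique molecular identifiers (UMIs), and that of BiDT 34996 barcodes and 130313537 UMIs, with medians of 4126 and 2652 per barcode. Filters left 30415 Ctrl and 31709 BiDT cells, and 713 barcodes occurred in both libraries. Cells were assigned to classes by gates on marker genes that include no Ly6 gene, 21276 cells in Ctrl (70.0%) and 18567 in BiDT (58.6%). Of 15 classes, 10 had at least 100 cells in both libraries and were compared, from 10244 and 6632 macrophages to 219 and 107 regulatory T cells. The genes that led each class included its markers, though NK cells were led by granzyme genes and conventional CD4 T cells by Il13. Cells gated as stroma or tumour, led by Sparc, Bgn and Dcn, do not belong in a CD45 sort, and their markers do not tell fibroblasts from MC38 cells. Of monocytes and macrophages, 18.1% in Ctrl and 19.6% in BiDT lay between the 2 gates and were left out, and 19.6% of all filtered Ctrl and 34.0% of BiDT cells met no gate.

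Levels are in CPM, the usual counts-per-million scale, here the UMIs of a gene over all UMIs of its class in a library, with exact 95% Poisson intervals where given, and a difference is the log2 ratio of the BiDT level to the Ctrl level, whose 95% interval is exact and comes from the binomial split of the UMIs. Both intervals cover counting error only. A gene was measured in a class with at least 50 UMIs over both libraries, and was named higher or lower past 1.5-fold, a log2 ratio of 0.58 in size. Of 60 pairs of gene and class, 43 were measured, of which 27 were higher in BiDT, 1 was lower and 15 lay within 1.5-fold. Over all genes measured in these classes, 13.6% of pairs were higher and 7.95% lower. TMM scaling, a trimmed mean of gene-wise ratios, shifts every log2 ratio by -0.22 in macrophages, -0.19 in migratory dendritic cells (DCs) and -0.19 in stroma or tumour cells, and by less than 0.1 in the other 7 classes.

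**Figure D1:**
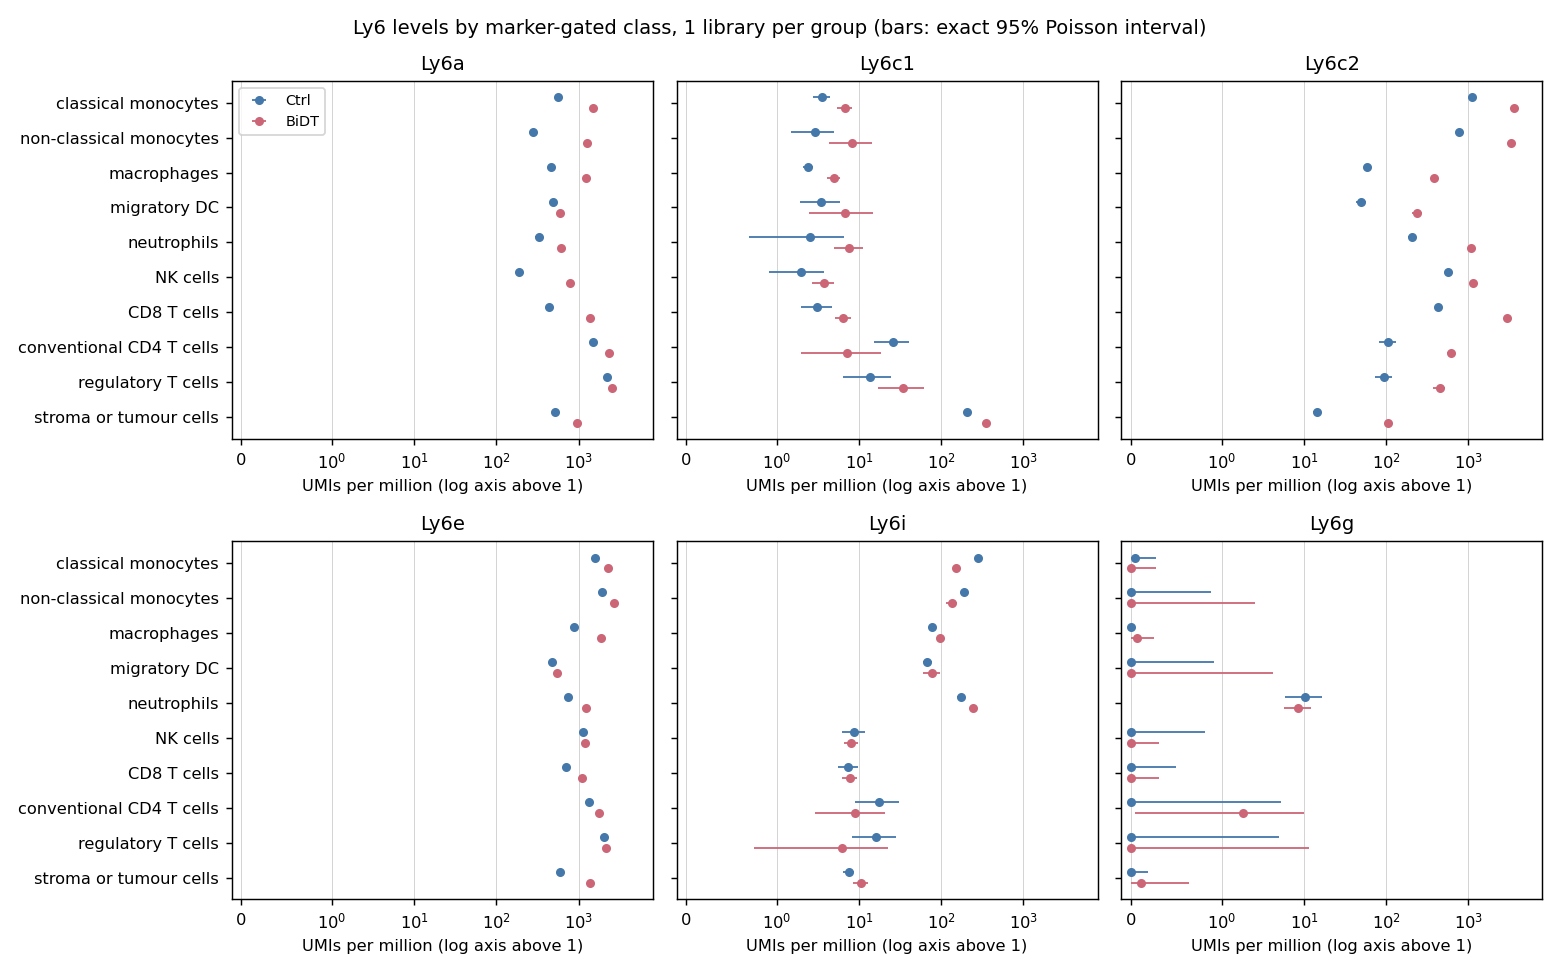
Level of each Ly6 gene (x axis, CPM, log axis above 1) in 10 marker-gated classes (y axis) of the Ctrl and BiDT libraries, 1 point per library with its exact 95% Poisson interval. Ly6c2 in CD8 T cells stood at 423 in Ctrl and 2926 in BiDT, while Ly6g was seen at 10.2 and 8.54 in neutrophils.

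Ly6c2 encodes most of the Ly6C antigen by which blood and tumour monocytes are sorted. It was higher in BiDT in all 10 classes, with a median log2 ratio of 2.33, and in the control tumours it already reached beyond monocytes. Classical monocytes held 1102 CPM in Ctrl (1087 to 1116) and 3590 in BiDT (3558 to 3623), the highest of the 10 classes in both libraries. Non-classical monocytes, which on protein grounds are the Ly6C-low subset, followed at 777 and 3350 CPM, so that the classical level was 1.42 times theirs in Ctrl (1.37 to 1.47) and 1.07 times in BiDT (1.04 to 1.10).

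The lymphocytes differed among themselves. CD8 T cells went from 423 CPM in Ctrl (408 to 438) to 2926 in BiDT (2895 to 2957), a log2 ratio of 2.79 (2.74 to 2.84). NK cells, at 573 and 1144 CPM, had the smallest ratio of the 10 classes, 1.00 (0.94 to 1.06). Conventional CD4 T cells stood at 105 and 612 CPM and regulatory T cells at 93.8 and 447, both far below CD8 T cells in BiDT. In Ctrl, NK cells were above CD8 T cells, and in BiDT CD8 T cells were above NK cells, with no overlap of the counting intervals in either library.

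Among myeloid and other cells, macrophages went from 58.4 to 382 CPM, a log2 ratio of 2.71 (2.66 to 2.76). Neutrophils stood at 209 and 1091 CPM and migratory DCs, the CCR7-bearing cells that carry antigen to lymph nodes, at 49.0 and 239. The stroma or tumour class was the lowest of the 10 in both libraries, at 14.4 and 106 CPM, and had the largest ratio, 2.88 (2.68 to 3.08). The share of all measured genes that were higher in BiDT was 10.9% in classical monocytes, 9.01% in non-classical monocytes, 19.6% in macrophages, 11.7% in neutrophils, 15.5% in migratory DCs, 10.1% in CD8 T cells, 10.6% in conventional CD4 T cells, 11.0% in regulatory T cells, 13.5% in NK cells and 17.0% in stroma or tumour cells.

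**Figure D2:**
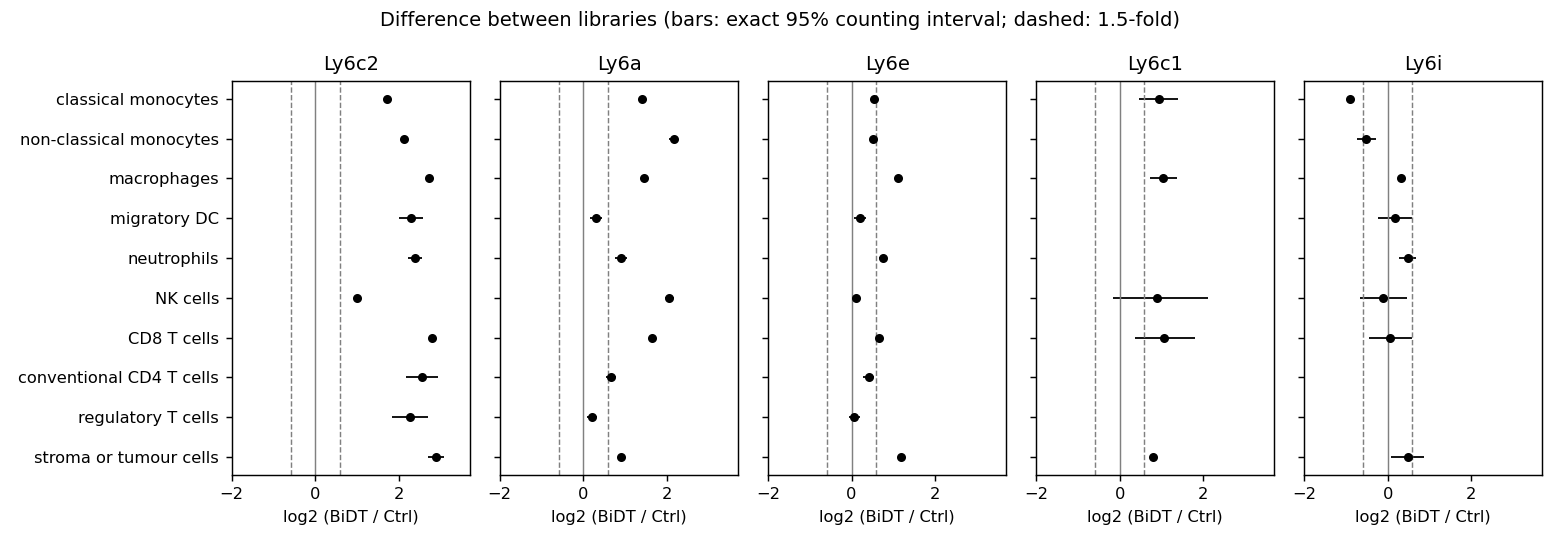
Difference between libraries (x axis, log2 of BiDT over Ctrl) for the 5 Ly6 genes measured, by class (y axis), with exact 95% counting intervals and dashed lines at 1.5-fold. Points of Ly6c2 lie right of the dashed line in all 10 classes, those of Ly6e on both sides of it, and Ly6i in classical monocytes, at -0.90, is the single point left of the lower line.

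Detection followed the levels in CD8 T cells, whose median depths were nearly equal, 3413 UMIs in Ctrl and 3402 in BiDT. After every cell had been thinned to 1000 UMIs, 23.8% of Ctrl and 74.6% of BiDT CD8 T cells held a Ly6c2 UMI, and 43.5% and 89.6% did without thinning. Thinned classical monocytes were positive in 42.8% and 66.8%, NK cells in 23.3% and 37.8%, and macrophages in 4.79% and 23.0%. The unthinned shares were 67.4% and 83.6% in classical monocytes, at median depths of 4312 and 3703 UMIs. In BiDT the share of positive CD8 T cells was thus above that of classical monocytes, although the mean level was below it. In the stroma or tumour class, 1.76% of thinned cells in Ctrl and 12.9% in BiDT were positive. Of its unthinned cells 12.2% and 50.7% were, at median depths of 10572 and 6043 UMIs. This class held Ly6c1 at 203 and 354 CPM, and the part of shared reads in its Ly6c2 was not tested.

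**Figure D3:**
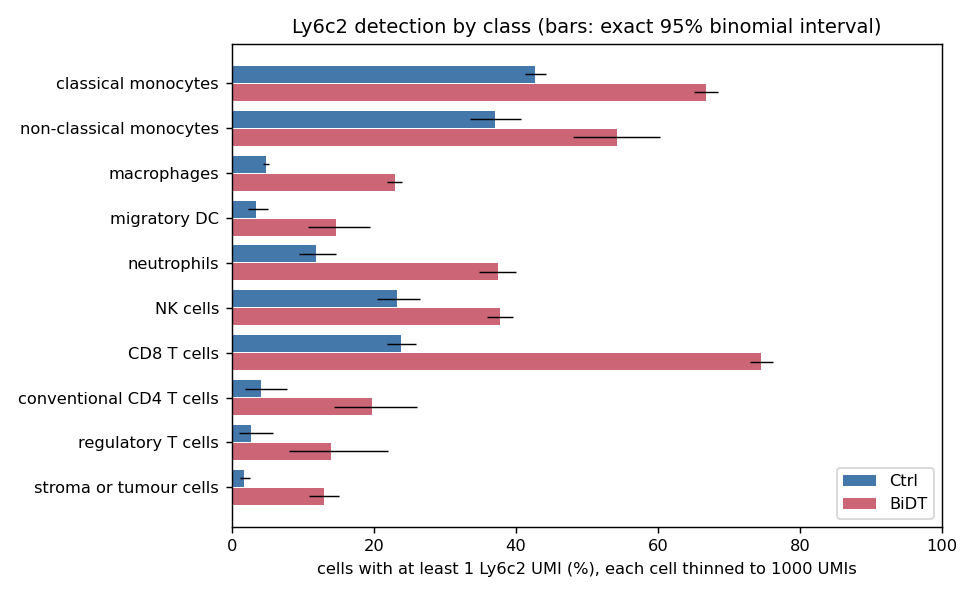
Share of cells with at least 1 Ly6c2 UMI after thinning to 1000 UMIs (x axis, percent) by class (y axis) in Ctrl and BiDT, with exact 95% binomial intervals. In Ctrl classical monocytes led at 42.8%, and in BiDT CD8 T cells led at 74.6%.

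RNA set free by lysed cells can be counted with any cell, and 15 genes of monocytes and macrophages, such as the lysozyme gene Lyz2, were used to gauge it. In CD8 T cells the median of the 15 stood at 4.73% of the level in their source class in Ctrl and 4.37% in BiDT, and the highest, the lysosomal protease gene Ctsd, at 45.0% and 38.7%. Ly6c2 in CD8 T cells stood at 38.4% of its classical monocyte level in Ctrl and at 81.5% in BiDT. In NK cells the median of the 15 was 4.72% and 3.69%, and Ly6c2 was far above it at 52.0% and 31.9%. The highest of the 15 were Ctsd at 65.8% in Ctrl and Spp1 at 92.3% in BiDT. Genes so far above the median, Ctsd in CD8 T cells among them, may be expressed by the lymphocytes themselves, which was not tested. In conventional CD4 T cells the median was 6.40% and 5.21% against 9.54% and 17.1% for Ly6c2, and in regulatory T cells 5.62% and 4.07% against 8.51% and 12.4%. In the stroma or tumour class Ly6c2 stood at 1.31% and 2.95%, below the medians of 3.48% and 3.47%. In migratory DCs Ly6c2 stood at 4.45% and 6.64%, and the 15 genes at medians of 8.76% and 11.6% with the lowest at 3.66% and 6.45%, though some of them, such as Wfdc17 at 25.5% and 34.8%, may be expressed by DCs themselves. The 7 genes used for free RNA of lymphocytes, such as Gzmb, had medians of 0.53% and 1.79% of their source level in macrophages, 0.98% and 1.84% in neutrophils and 0.34% and 1.19% in stroma or tumour cells. Ly6c2 stood at 10.2% and 13.04% of the highest lymphocyte class in macrophages, at 36.5% and 37.3% in neutrophils and at 2.52% and 3.62% in stroma or tumour cells. The part of free RNA in the Ly6c2 differences was not tested.

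The cells of a class fell into different clusters in the 2 libraries, more so in monocytes and macrophages than in CD8 T cells. Cells were clustered without Ly6 genes and without the genes of an interferon response list, though other interferon-induced genes stayed in, so that other cells and the same cells in another state cannot be told apart. One cluster held 28.0% of classical monocytes in BiDT and 0.148% in Ctrl, at 7473 Ly6c2 CPM. Within the 4 clusters that held at least 100 classical monocytes in both libraries, the Ly6c2 log2 ratio was 0.15 to 1.33, and over the cells of these clusters together 0.31, within 1.5-fold. Non-classical monocytes had 1 such cluster, with a ratio of 0.35. CD8 T cells had 2, with ratios of 2.92 and 3.06, and macrophages 6, with ratios of 1.08 to 2.51, although the cluster that held 55.4% of BiDT macrophages held 0.654% of those in Ctrl. With Plac8 left out of the monocyte gate the ratio in classical monocytes was 1.76 in place of 1.70. These restrictions were added after the levels had been seen.

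In the control tumours the 2 shared CD8 T cell clusters held 446 and 313 Ly6c2 CPM, and in the treated tumours 3382 and 2603. Each BiDT value was above the BiDT levels of the 4 shared monocyte clusters, which ran from 767 to 2151 CPM, and below the 7473 CPM of the cluster found almost wholly in BiDT. The summed level of the interferon list was 39410 CPM in that cluster, against 10950 to 17900 in the shared monocyte clusters of BiDT and 11740 and 13270 in the CD8 T cell clusters of BiDT. A further cluster outside the shared ones held 3.37% of BiDT classical monocytes, at 6040 CPM of Ly6c2 and 31260 of the list.

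**Figure D4:**
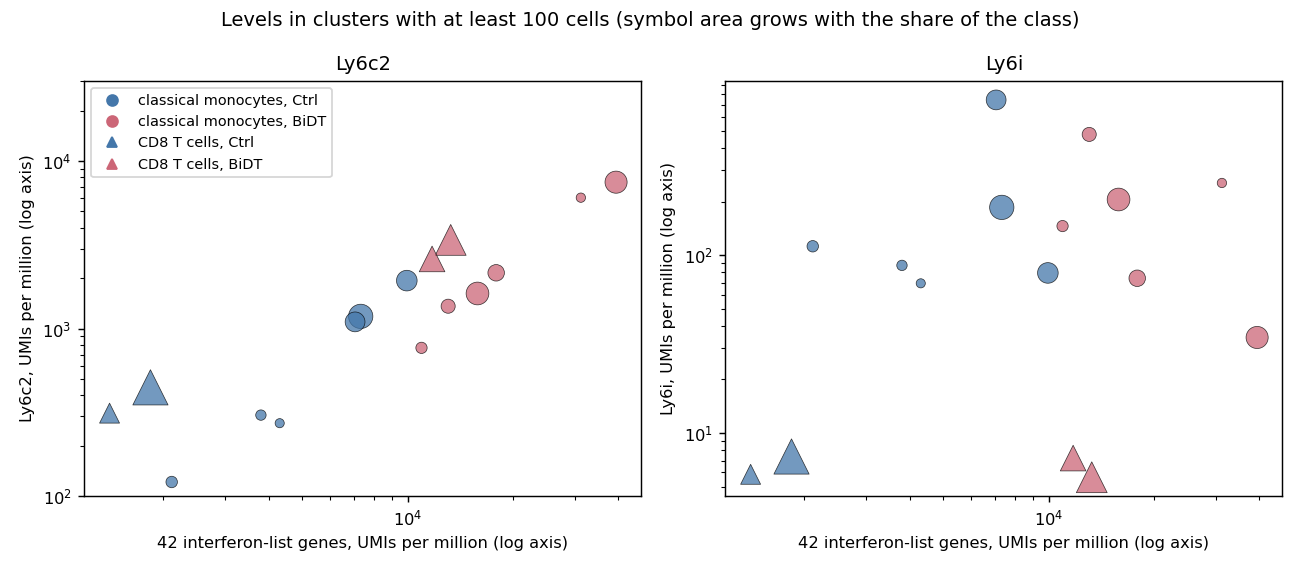
Ly6c2 (left) and Ly6i (right) level (y axes, CPM, log axis) against the summed level of 42 interferon-list genes (x axes, CPM, log axis) in clusters of classical monocytes (circles) and CD8 T cells (triangles) with at least 100 cells in a library, coloured by library, with areas that grow with the share of the class. The BiDT monocyte cluster at the far right has 7473 CPM of Ly6c2 and 34.4 of Ly6i, while the CD8 T cell clusters hold 5.64 to 7.38 CPM of Ly6i in both libraries.

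As a lineage mark, Ly6c2 set single classical monocytes apart from CD8 T cells less in BiDT than in Ctrl, and from macrophages more. The classical monocyte level was 2.61 times the CD8 T cell level in Ctrl (2.51 to 2.70) and 1.23 times in BiDT (1.21 to 1.24). The chance that a monocyte held more Ly6c2 UMIs than a CD8 T cell, both thinned and with ties split evenly, was 0.608 in Ctrl and 0.488 in BiDT, where 0.5 means no separation. The same measure between classical monocytes and macrophages was 0.694 and 0.761, between classical monocytes and NK cells 0.600 and 0.685, and between classical and non-classical monocytes 0.537 and 0.565, the last against the direction of their mean levels. The ratio of mean levels between classical monocytes and macrophages went the other way, 18.9 in Ctrl (18.3 to 19.4) and 9.41 in BiDT (9.21 to 9.61). Besides the highest class, 4 classes stood at 10% or more of its level in Ctrl and 7 in BiDT, a count that was 3 and 4 when clusters replaced the gates. The clusters gave no class of non-classical monocytes, conventional CD4 T cells or regulatory T cells. With gates all of these counted in BiDT, and non-classical monocytes counted in Ctrl as well.

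Of all thinned cells of the 10 classes with a Ly6c2 UMI, classical monocytes made up 53.8% in Ctrl and 27.0% in BiDT. CD8 T cells made up 12.9% and 27.5%, and macrophages 15.2% and 20.3%. These compositions also carry the numbers of cells per class, 4047 and 3028 classical monocytes and 1746 and 2766 CD8 T cells. With every class weighted equally, classical monocytes made up 27.4% and 18.8% and CD8 T cells 15.3% and 21.0%.

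Ly6a, the gene of Sca-1, was higher in BiDT in 8 of 10 classes, with a median log2 ratio of 1.16, and its levels in the classes lay closer together there. Regulatory T cells were the highest of the 10 classes in both libraries, at 2241 CPM in Ctrl (2135 to 2351) and 2573 in BiDT (2400 to 2754), a log2 ratio of 0.20. Conventional CD4 T cells followed at 1483 and 2328 CPM, and in BiDT their interval overlapped that of regulatory T cells. NK cells were lowest in Ctrl, at 189 CPM, and reached 786 in BiDT, a log2 ratio of 2.05 (1.95 to 2.16). The highest class was 11.8 times the lowest in Ctrl and 4.30 times in BiDT, where migratory DCs were lowest.

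In CD8 T cells Ly6a stood at 443 and 1386 CPM, a log2 ratio of 1.65 (1.59 to 1.70), and at 1.64 and 1.82 within the 2 shared clusters. The thinned share of positive cells was 31.7% in Ctrl and 63.5% in BiDT. Classical monocytes held 564 and 1493 CPM, non-classical monocytes 280 and 1252, and macrophages 461 and 1249. Within shared clusters the ratio in classical monocytes was 0.15 to 1.10, and 0.36 over those clusters together, so that the call of 1.40 does not hold there, while clusters in place of gates gave 2.48. Non-classical monocytes had a ratio of 0.64 in their shared cluster in place of 2.16. Macrophage clusters ran from -0.19 to 1.80, with 0.59 over the shared clusters together in place of 1.44. Neutrophils stood at 327 and 613 CPM, stroma or tumour cells at 520 and 971, and migratory DCs at 484 and 598. The migratory DC ratio of 0.30 lay within 1.5-fold, but was 0.84 in the shared cluster and 0.92 with clusters in place of gates, both past it. In BiDT neighbouring classes in the order overlapped in 3 of 9 cases, regulatory with conventional CD4 T cells, non-classical monocytes with macrophages, and neutrophils with migratory DCs. In Ctrl the overlaps were migratory DCs with macrophages and macrophages with CD8 T cells.

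Ly6e, known as thymic shared antigen and found on many cell types, was the gene least tied to a class. It was higher in 4 of 10 classes, with a median log2 ratio of 0.53, and every class held at least 477 CPM in Ctrl and 552 in BiDT. Macrophages went from 881 to 1901 CPM (log2 ratio 1.11, 1.09 to 1.12) and stroma or tumour cells from 603 to 1372 (1.19, 1.15 to 1.22). Over the 6 macrophage clusters present in both libraries, however, Ly6e ratios ran from 0.06 to 0.80, and over these clusters together the ratio was 0.35. Neutrophils held 744 and 1250 CPM and CD8 T cells 699 and 1097, log2 ratios of 0.75 and 0.65.

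In NK cells Ly6e stood at 1123 and 1205 CPM, a log2 ratio of 0.10, and in regulatory T cells at 2056 and 2144, a ratio of 0.06 (-0.07 to 0.19). Regulatory T cells were the highest class in Ctrl with an interval that overlapped that of non-classical monocytes, the highest class in BiDT at 2736 CPM. Migratory DCs were the lowest in both. The highest class was 4.31 times the lowest in Ctrl and 4.96 times in BiDT.

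Ly6c1, the near copy of Ly6c2 that is best known from endothelium, was a gene of the stroma or tumour class here. This class held 203 CPM in Ctrl (197 to 210) and 354 in BiDT (342 to 367), a log2 ratio of 0.80, and 14.7% and 20.4% of its thinned cells were positive. Of the other 9 classes, none exceeded 25.9 CPM in Ctrl or 34.1 in BiDT, the values of conventional CD4 and regulatory T cells, which rest on 18 and 11 UMIs. All 5 classes in which it was measured were higher in BiDT, but outside the stroma or tumour class these are levels of 1.99 to 6.66 CPM. In NK cells, with 9 and 44 UMIs, the interval of -0.15 to 2.12 holds a ratio of no change, and with clusters in place of gates the ratio was 0.50, within 1.5-fold. Stroma genes such as Sparc stood at medians of 0.84% to 1.01% of their source level in Ctrl and 0.61% to 1.38% in BiDT in macrophages, CD8 T cells, NK cells and classical monocytes, and Ly6c1 in these classes at 0.98% to 1.72% and 1.05% to 1.88%. Free RNA, reads shared with Ly6c2 and expression at a low level cannot be told apart at these counts. In classical monocytes and macrophages the ratio was -0.31 (-1.23 to 0.56) and -0.24 (-3.31 to 1.65) in the 1 shared cluster with enough UMIs in each, intervals that hold ratios of either sign. Over all shared clusters together it was 0.34 in classical monocytes and 0.71 in macrophages, and 0.96 in the CD8 T cell cluster with enough UMIs.

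Ly6i, described as a gene of macrophages, was found mainly in phagocytes, DCs and neutrophils, and in 1 class its level was lower in BiDT. Classical monocytes held 283 CPM in Ctrl (275 to 290) and 151 in BiDT (145 to 158), a log2 ratio of -0.90 (-0.98 to -0.83), where 6.75% of all measured genes were lower. Non-classical monocytes stood at 191 and 134 CPM, a ratio of -0.51. Neutrophils went the other way, from 174 to 242 CPM (0.48, 0.28 to 0.68), and macrophages from 77.0 to 96.8 (0.33, 0.27 to 0.40), all within 1.5-fold. The highest class was therefore classical monocytes in Ctrl and neutrophils in BiDT. The difference of these ratios between classes was not tested.

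The lower Ly6i level in monocytes did not hold in every cluster. One cluster held 22.1% of classical monocytes in Ctrl and 10.2% in BiDT, at 745 and 477 CPM, and the cluster found almost wholly in BiDT held 34.4 CPM. A further BiDT cluster outside the shared ones, with 3.37% of the class and 31260 CPM of the interferon list, held 254 CPM. Over the 4 shared clusters the ratio ran from -0.64 to 0.73, and was -0.53 over their cells together, within 1.5-fold, and with clusters in place of gates it was -0.34. CD8 T cells held 7.40 and 7.71 CPM, NK cells 8.61 and 8.01 and stroma or tumour cells 7.46 and 10.4, which is 2.62% to 3.05% of the classical monocyte level in Ctrl and 5.11% to 6.92% in BiDT. The medians of the 15 free RNA genes in these classes were 3.48% to 4.73% and 3.47% to 4.37%, above these Ly6i shares in Ctrl and below them in BiDT. The classical monocyte level was itself lower in BiDT. Against neutrophils, the highest class there, Ly6i stood at 3.19% in CD8 T cells, 3.32% in NK cells and 4.33% in stroma or tumour cells. The BiDT medians in these classes, in that order, were 4.37%, 3.69% and 3.47%.

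Ly6g, the transcript behind the neutrophil antibody, stayed with neutrophils but was barely detected. Neutrophils held 16 UMIs in 621 cells in Ctrl and 28 UMIs in 1367 cells in BiDT, 10.2 CPM (5.85 to 16.6) and 8.54 CPM (5.68 to 12.3), with a log2 ratio of -0.26 (-1.20 to 0.72). A UMI was seen in 2.09% and 1.76% of neutrophils without thinning, at median depths of 2004 and 1941. All other gated classes together held 1 UMI in Ctrl, in classical monocytes, and 4 in BiDT, of which 2 were in macrophages. With 44 neutrophil UMIs over both libraries it fell under the minimum of 50 and enters no count, and at this depth a single neutrophil was rarely told from a monocyte by Ly6g, with a chance of 0.505 in Ctrl and 0.504 in BiDT on the measure used for Ly6c2.

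Cells that held several Ly6 transcripts at once were more frequent in BiDT. Such shares rise when those of single genes do. In CD8 T cells these were 31.7% and 63.5% for Ly6a and 23.8% and 74.6% for Ly6c2. Whether the genes met in a cell more often than their single shares give was not tested. In CD8 T cells 8.25% of thinned cells held both Ly6a and Ly6c2 in Ctrl and 50.4% in BiDT, and 4.35% and 31.7% held 3 or more of the 6 genes. In classical monocytes the pair was found in 11.4% and 40.3%, and 3 or more genes in 16.5% and 40.9%. Macrophages held the pair in 1.79% and 14.4%, stroma or tumour cells in 0.473% and 6.42%, NK cells in 5.10% and 19.3%, and regulatory T cells in 0.913% and 12.1%. Cells with no Ly6 UMI at all made up 31.6% and 6.98% of CD8 T cells, and 61.8% and 42.6% of migratory DCs, the highest share in both libraries. In regulatory T cells the share with none was 5.02% and 5.61%.

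**Figure D5:**
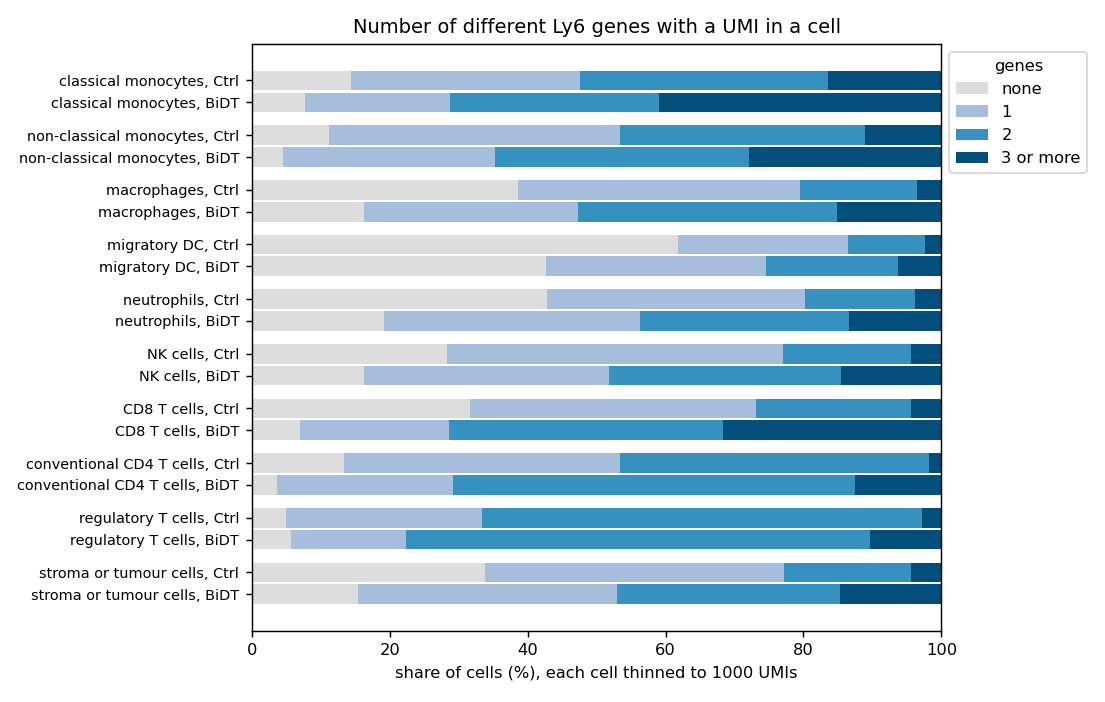
Share of thinned cells (x axis, percent) by the number of different Ly6 genes with a UMI, for each class and library (y axis). In CD8 T cells the segment of 3 or more genes is 4.35% in Ctrl and 31.7% in BiDT, and in classical monocytes 16.5% and 40.9%.

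The genes of a type I interferon response list, induced through the receptor IFNAR, were higher almost throughout. Of 45 symbols 42 were in the tables, and all 42 were higher in CD8 T cells, with a median log2 ratio of 2.94 against 0.05 over all measured genes. Isg15, a ubiquitin-like modifier, went from 49.4 to 922 CPM there, and Rsad2, which encodes the antiviral enzyme viperin, from 7.80 to 197. In classical monocytes 41 of 42 were higher with a median of 1.73, in NK cells 41 of 42 with 2.27, in macrophages 42 of 42 with 2.85 and in neutrophils 40 of 42 with 1.54. In the list, as for Ly6c2, CD8 T cells had a larger ratio than classical monocytes, but NK cells, with 1.00 for Ly6c2 and 2.27 for the list median, did not keep that order.

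Within a class the cells were ranked by their thinned UMIs of this list, and the lowest tercile was set beside the highest tercile. In classical monocytes 22.0% of the lowest tercile in Ctrl held Ly6c2 and 62.1% of the highest, and 44.6% and 89.4% in BiDT. In CD8 T cells the shares were 21.1% and 26.8% in Ctrl, where the medians of list UMIs were 0 and 3, and 60.1% and 85.1% in BiDT, where they were 5 and 20. NK cells showed 23.8% and 22.5% in Ctrl and 35.3% and 40.5% in BiDT. Ly6a in CD8 T cells was found in 28.7% and 35.2% in Ctrl and 50.4% and 76.2% in BiDT, and in BiDT monocytes in 34.2% and 77.1%, but in Ctrl monocytes in 23.2% and 26.3%. Ly6i in classical monocytes was found in 13.1% of the lowest and 16.8% of the highest tercile in Ctrl, and in 15.9% and 7.33% in BiDT. Terciles of a class can also differ in the clusters they draw on. In BiDT the list level ran from 10950 to 39410 CPM over the classical monocyte clusters with at least 100 cells. The part of this in the tercile shares was not tested. In the stroma or tumour class of BiDT, Ly6c1 was found in 10.9% and 31.6%.

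CD8 T cells were also split by a UMI of Havcr2, the gene of TIM3, taken before thinning. Ly6c2 was found in 24.5% of cells with Havcr2 and 23.2% of those without in Ctrl (21.6 to 27.6% and 20.5 to 26.1%), and in 76.7% and 71.9% in BiDT (74.5 to 78.7% and 69.3 to 74.4%). Ly6a was found in 33.6% and 30.0% in Ctrl and in 68.3% and 57.3% in BiDT. Both genes were thus more frequent in BiDT whether or not Havcr2 was seen. A UMI of Havcr2 is more likely in a deeper cell, and the part of this in the differences within a library was not tested.

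The machinery that builds and attaches the GPI anchor, on which all 6 proteins depend, is given here for CD8 T cells, classical monocytes and macrophages. Of 28 such genes counted, 26 were measured in CD8 T cells, 0 were higher and 2 lower, with a median log2 ratio of 0.03, where 10.1% of all measured genes were higher and 4.43% lower. In classical monocytes 2 of 27 were higher and 1 lower, with a median of 0.10, and in macrophages 3 of 28 and 1, with 0.05, against 10.9% and 19.6% of all measured genes that were higher in these classes. Of 20 other GPI-anchored antigens of leukocytes, 15 were measured in CD8 T cells, and 0 of these were higher or lower, with a median of -0.21, among them Thy1 at 1266 and 1280 CPM and Cd52 at 1990 and 1627. In classical monocytes 2 of 13 were higher and 5 lower, beside 10.9% and 6.75% of all measured genes. In macrophages 6 of 16 were higher and 4 lower, beside 19.6% and 12.7%.

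Further genes of the Ly6 and uPAR superfamily were mostly silent in these cells. Of 37 counted, 7 were measured in macrophages, of which 2 were higher, 4 in CD8 T cells, of which 1 was higher, and 3 in classical monocytes, of which 1 was higher and 1 lower. These counts rest on few genes, beside shares over all measured genes of 19.6% higher in macrophages, 10.1% in CD8 T cells and 10.9% in classical monocytes. Plaur, the urokinase receptor, was measured in all 10 classes and stood at 1760 and 1889 CPM in classical monocytes and at 878 and 1137 in macrophages. Ly6d, a gene best known from B cell precursors and keratinocytes, had 2 UMIs in Ctrl CD8 T cells and 60 in BiDT, and 2 and 50 in classical monocytes. Cd177, a neutrophil antigen, stood at 82.6 and 51.9 CPM in neutrophils, and at 62.1 and 39.5 in classical monocytes.

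Across 20 points, the 10 classes in both libraries, the log2 levels of 6215 genes were set beside those of each Ly6 gene. The points share 2 libraries and 10 classes, so that the coefficients describe and test nothing. Ly6c2 was most like Plac8 (Pearson r 0.854), which is a marker of the monocyte gate, Cgas (0.848), a sensor of cytosolic DNA, and Sp100 (0.832), a gene of the interferon list. Ly6a was most like the guanylate-binding protein gene Gbp6 (0.867) and the class I histocompatibility genes H2-K1 (0.860) and H2-T22 (0.822). Ly6e was closest to Selenot (0.826), Tspan14 (0.812) and Ifi203 (0.806), Ly6i to Gpr35 (0.983), Il13ra1 (0.975) and Il1b (0.970), Ly6c1 to Adamts1 (0.931), Cog4 (0.916) and Timp3 (0.912), and Ly6g to Mrgpra2b (0.942), Stfa2l1 (0.941), a neutrophil gate marker, and Chil1 (0.929). Among the Ly6 genes themselves the coefficients of Ly6c2 were 0.57 with Ly6e, 0.18 with Ly6a and -0.43 with Ly6c1.

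The 5 classes with fewer than 100 cells in a library are given as levels only. Plasmacytoid DCs, the main natural producers of type I interferon, numbered 53 in Ctrl and 15 in BiDT and were high in Ly6c2 in both, at 1904 and 2965 CPM, with Ly6a at 1862 and 2786. In Ctrl their Ly6c2 level, on 452 UMIs, and that of B cells, on 171 UMIs, were above the 1102 CPM of classical monocytes, but only 30.8% of the 13 B cells, which is 4 cells, held all of those UMIs. Gamma delta T cells, 106 and 46 cells, held 75.6 and 880 CPM of Ly6c2. Type 1 conventional DCs (cDC1), which cross-present antigen to CD8 T cells, had 11 UMIs in 78 cells in Ctrl and 70 in 50 cells in BiDT, 17.2 and 279 CPM, and type 2 conventional DCs (cDC2) 164 and 352 CPM. B cells, 13 and 38, held 1884 and 2202 CPM, with the plasma cell gene Jchain among the leading genes of that gate.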

How the data were processed

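The authors deposited 2 matrices of UMI counts, raw by their values, from sorted live CD45-positive cells, 1 library per group. Per the labels' protocols the libraries came from a 10x 3′ workflow, and the submitters' processing notes name Cell Ranger 7.1.0 and GRCm39. Barcodes have 3 segments of 9 bases, which is not the form Cell Ranger writes, so that the pipeline behind the counts is uncertain. The sources used here do not say how barcodes were filtered.

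Kept cells had 300 or more genes, 500 or more UMIs and no more than 10% of UMIs from mitochondrial genes, and those with a Scrublet doublet score of 0.15 or more were removed, 2220 in Ctrl and 2714 in BiDT, because Scrublet's own thresholds marked 0. A cell entered a class with at least 3 UMIs from 2 genes of the lineage's markers and few markers of other lineages. Counts were summed per class and library and scaled to the class total. With 1 library per group no test was possible, and intervals rest on counts alone. Clusters came from 3000 variable genes, 30 principal components, 15 neighbours and Leiden resolution 1.5 (scanpy 1.11.5, igraph 0.11.9). TMM factors came from edgeR 4.0.16, and the rest from Python 3.11.15 with numpy 2.4.6, scipy 1.17.1 and pandas 2.3.3. On simulated CD8 T cell counts of 9044 genes, of which 200 were changed, 95.6% of intervals held the true ratio, and 100% of genes 2-fold higher and 99.0% of those 2-fold lower were called. These counts were Poisson draws, the model on which the intervals rest, with no spread between cells, animals or libraries. The simulation therefore checks the calculation only and not how the calls would hold in further animals.

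The genes named are the 6 Ly6 genes, for each the 3 other genes of highest correlation of log2(CPM + 1) among genes with at least 50 CPM in 1 point, and genes of the lists described. Genes, gates and lists were chosen with earlier results of these data known. There were 11 alternatives, of which 3, leaving out shared barcodes, leaving Plac8 out of the monocyte gate and keeping only clusters found in both libraries, were added after the data had been seen. Promoter sequences are from RefSeq, build GRCm38.p6, where 3 of the 6 genes were matched.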

Additional observations from a re-analysis of the deposited data

How the results depend on the processing

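The count of 27 pairs of Ly6 gene and class that were higher in BiDT, of 43 measured, ranged from 21 to 31 over 11 alternatives. The number of measured pairs changed as well. The higher pairs were 25 of 34 with clusters in place of gates and 24 of 36 after thinning. They were 31 of 51 with no minimum of UMIs and 21 of 39 with only clusters shared by both libraries. The 1 lower pair, Ly6i in classical monocytes, became 2 without doublet removal, 0 with clusters in place of gates, 2 with a minimum of 20 UMIs, 4 with no minimum and 0 with only clusters that hold 100 cells of the class in both libraries. The 7 classes at 10% or more of the highest Ly6c2 level in BiDT became 4 with clusters, which gave 7 classes in place of 10, 5 with 1 more marker UMI in each gate and 5 with only shared clusters, and the 4 in Ctrl ranged from 3 to 6. The clusters gave no class of non-classical monocytes, conventional CD4 T cells or regulatory T cells, which all counted in BiDT with gates. The causes of the other changes were not tested. Of 43 pairs, 31 kept their call under every alternative that measured them, 12 lost it under at least 1, and 40 kept their sign. Ly6g was under 50 UMIs in every class, as were Ly6c1 and Ly6i in both CD4 T cell classes. No paired analysis was possible because each group is 1 library of pooled animals.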
